A study of Arabidopsis thaliana with 12 samples.

Results

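AT5G05400 and GLR2.7 account for 2 of the 692 rows assigned to a single gene, among the 3439 rows of an expression array table from Arabidopsis thaliana. AT5G05400 is listed as an immune receptor of the nucleotide-binding leucine-rich-repeat class, abbreviated NLR, and GLR2.7 is a glutamate receptor-like channel, locus AT2G29120. The platform annotation names each of them alone on its row. Whether transcripts of other genes also contribute to these intensities was not checked. Both were picked with their difference between the 2 groups already known. That difference is therefore described here without a test.

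The arrays measured total RNA of wild-type plants of the ecotype Columbia 0. The treated group had 6 samples, from plants exposed to staurosporine (2 µM, 4 h) and afterwards to ascorbate (25 mM, pH 5.5, 4 h), and the water group had 6 samples from plants kept 8 h in water. Staurosporine blocks the activity of many protein kinases, enzymes of many signalling pathways, and ascorbate, or vitamin C, removes reactive oxygen species. No group received either compound alone or a solution of that pH without ascorbate, so the effects of each cannot be told apart. Replicate numbers run over 1 to 6 in each group. No label pairs equal numbers across the groups, so same-numbered comparisons below do not rest on an established pairing. No label gives an age, an organ or a statement of separate cultures, so the spread between samples may be technical.

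NLR proteins are immune receptors inside the plant cell that sense molecules injected by pathogens. Their nucleotide-binding domain works as a switch and the leucine-rich repeats take part in recognition, and activation often ends in local cell death. Glutamate receptor-like proteins are plant relatives of the glutamate-gated ion channels of animal nerve cells. They let cations, calcium among them, into the cytosol in response to amino acids and wounding, and the clade with GLR2.7, GLR2.8 and GLR2.9 carries part of the calcium influx that follows the sensing of microbial patterns at the cell surface.

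Values are linear intensities as deposited, and their scale has no stated unit. Array means lay between 0.857 and 1.04, and 10.3% to 15.2% of rows on an array were listed at 0. Neither AT5G05400 nor GLR2.7 was listed at 0 on any array. Precision is limited by having 6 arrays per group. Arrays with adjacent numbers (1 and 2, 3 and 4, 5 and 6) resembled each other within a group, which no label explains. Their deviations from the group mean correlated at -0.09 to 0.64, against at most -0.20 for other arrays of a group, so values are also given for these pairs. None of the 24 leaf, root and vascular marker genes looked up had a row of its own, and the origin of the RNA was not checked. In such whole samples, fewer cells of a type and less RNA per cell cannot be told apart.

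AT5G05400 transcripts were at higher intensity on every treated array than on any water array. Its intensity on treated replicates 1 to 6 was 0.588, 0.668, 0.412, 0.466, 0.646 and 0.657. On water replicates 1 to 6 it was 0.234, 0.201, 0.121, 0.145, 0.177 and 0.196. The groups did not overlap, and the lowest treated array stood 1.76-fold above the highest water array. Replicates 3 and 4 were the lowest of their group in both treated and water samples. The array medians of replicates 3 and 4 were also the lowest of their groups, at 0.355 and 0.351 in treated and 0.408 and 0.405 in water samples. Relative to the median of its own array the gene lay at 1.16 to 1.55 in treated and 0.297 to 0.497 in water samples, with replicate 3 still the lowest of each group.

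The mean intensity of AT5G05400 was 0.573 ± 0.108 in treated and 0.179 ± 0.0406 in water samples (SD, n = 6 each). On normalized log2 values the difference, treated minus water, was 1.85 ± 0.120 (SE). In same-numbered samples the treated over water ratio of deposited intensities was between 2.52 and 3.64, with the lowest in replicate 1 and the highest in replicate 5. Ranked within an array, the gene stood at the 55.0th to 67.6th percentile of all rows on treated arrays, in the middle of the table, and at the 20.6th to 27.9th percentile on water arrays, among the dim rows. Among the 692 rows with a single gene its difference was the 8th highest towards treated samples, and the 19th by size in either direction.

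**Figure D1:**
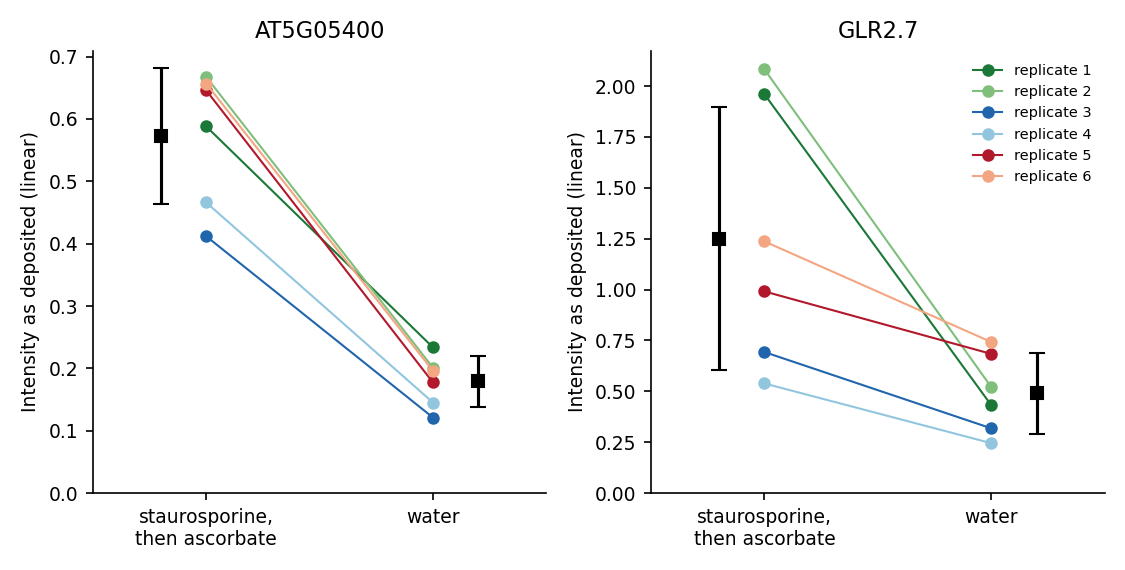
Deposited intensity (linear, vertical axis from 0) of AT5G05400 and GLR2.7 in staurosporine-ascorbate samples (left of each panel) and water samples (right); coloured points are arrays, lines join arrays of the same replicate number, and black squares with bars are means ± SD of 6 arrays. AT5G05400 lies between 0.412 and 0.668 in treated samples and between 0.121 and 0.234 in water samples, whereas GLR2.7 spans 0.539 to 2.08 in treated samples and 0.246 to 0.742 in water samples.

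GLR2.7 transcripts were also higher after treatment in every same-numbered comparison, but by an amount that varied widely between replicates. Its intensity on treated replicates 1 to 6 was 1.96, 2.08, 0.693, 0.539, 0.991 and 1.24. On water replicates 1 to 6 it was 0.432, 0.521, 0.318, 0.246, 0.684 and 0.742. The groups overlapped, because treated replicate 4 lay below water replicates 5 and 6, and treated replicate 3 lay below water replicate 6. Relative to the median of its own array, the lowest treated value was 1.54 (replicate 4) and the highest water value 1.53 (replicate 6), so on that scale the groups stood apart by a narrow margin.

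The mean intensity of GLR2.7 was 1.25 ± 0.645 in treated and 0.490 ± 0.197 in water samples (SD, n = 6 each), with a log2 difference of 1.36 ± 0.318 (SE), or 2.56-fold. The coefficient of variation was 51.6% over treated and 40.2% over water samples, against 18.9% and 22.7% for AT5G05400. Treated over water ratios of same-numbered samples were 4.54 and 4.00 for replicates 1 and 2, 2.18 and 2.19 for replicates 3 and 4, and 1.45 and 1.67 for replicates 5 and 6. Each ratio was closest to that of the adjacent number. GLR2.7 stood at the 65.8th to 93.7th percentile of rows on treated arrays and the 33.6th to 69.8th percentile on water arrays, and among the 692 rows with a single gene its difference was the 20th highest towards treated samples and the 43rd by size in either direction.

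Of the 2 genes, 1 had groups that did not overlap with the treated side higher, which held for 7.04% of all rows. For 2 of 2 genes treated exceeded water in all 6 same-numbered pairs, which held for 14.9% of all rows. Over the whole array 32.9% of rows passed an adjusted p of 0.05 in limma in either direction, with 16.7% higher and 16.2% lower in treated samples. With intensities as deposited, 39.2% of the passing rows were higher in treated samples, against 50.7% after normalization, and the median log2 difference of all rows as deposited was -0.08. Since both genes were chosen on this contrast, nothing is read from their own count.

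**Figure D2:**
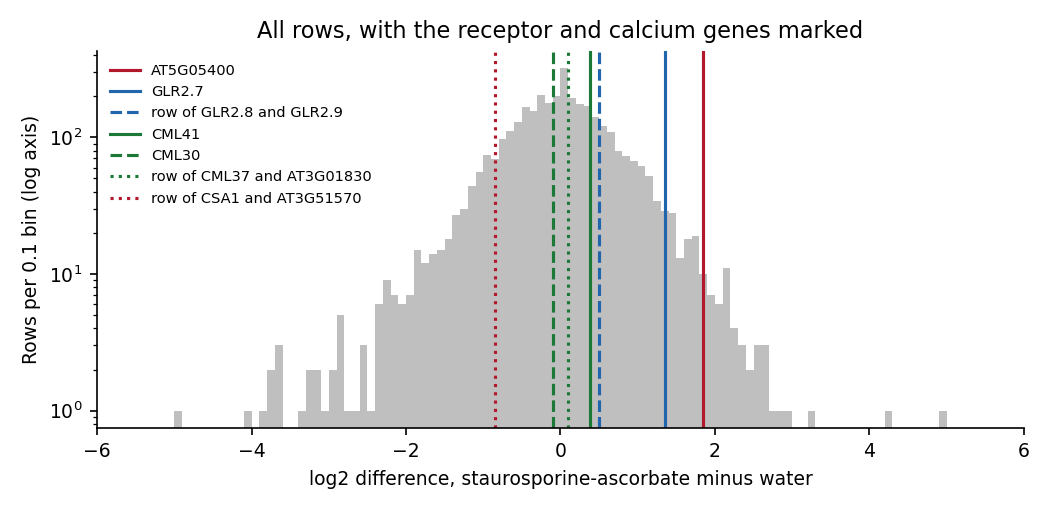
Histogram of the log2 difference, staurosporine-ascorbate minus water, of all 3439 rows (bins of 0.1, vertical log axis counting rows), with vertical lines at the immune receptor and calcium genes. AT5G05400 at 1.85 and GLR2.7 at 1.36 lie on the right flank, the row shared by GLR2.8 and GLR2.9 at 0.50, and the row shared by CSA1 and AT3G51570 on the left at -0.85.

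The size of the GLR2.7 difference followed the adjacent replicate numbers, and that of AT5G05400 did so far less. For GLR2.7 the log2 difference was 2.05 in replicates 1 and 2, 1.23 in replicates 3 and 4 and 0.79 in replicates 5 and 6. The spread of these 3 values, 1.26, exceeded that of 76.6% of all rows. Both groups contributed to it: mean intensities of replicates 1 and 2, 3 and 4, and 5 and 6 were 2.02, 0.616 and 1.11 in treated samples, and 0.476, 0.282 and 0.713 in water samples. Treated replicates 1 and 2 were the brightest treated arrays, whereas water replicates 5 and 6 were the brightest water arrays.

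For AT5G05400 the log2 differences of these pairs were 1.64, 1.81 and 2.09, in the opposite order to those of GLR2.7, and their spread of 0.45 exceeded that of 29.4% of rows. Deviations of the 2 genes from their group means correlated at 0.17 over 12 arrays, which share adjacent numbers and array scale. This is a description of the same arrays and carries no test. When 1 array at a time was left out, the log2 difference lay between 1.79 and 1.93 for AT5G05400 and between 1.21 and 1.51 for GLR2.7.

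**Figure D3:**
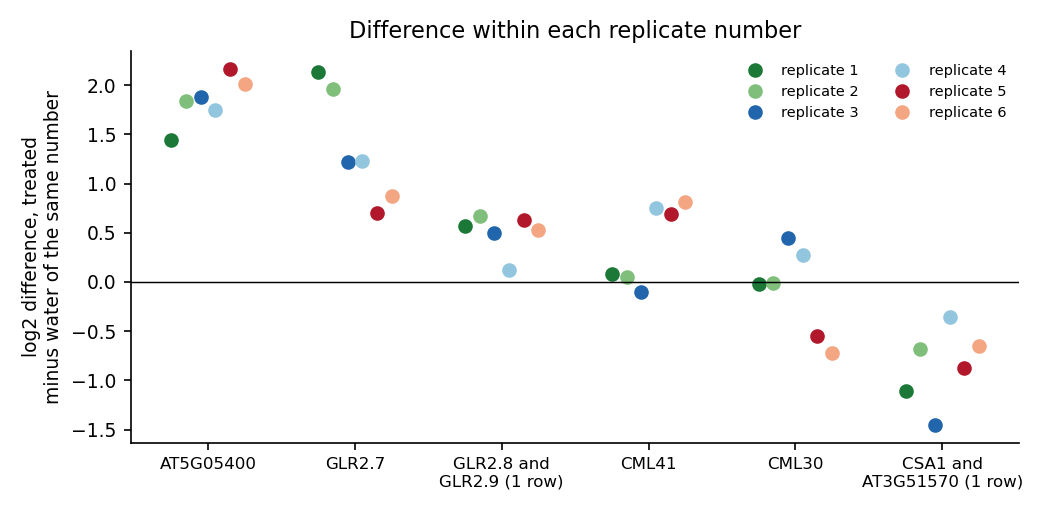
Log2 difference of normalized intensity between the staurosporine-ascorbate and the water array of the same replicate number (vertical axis), for 4 genes and 2 shared rows, with 1 point per number. GLR2.7 falls into separate levels by adjacent numbers (2.05, 1.23 and 0.79 as means), AT5G05400 stays within 1.45 to 2.17, and CML41 and CML30 lie on both sides of 0.

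AT5G05400 was close to the dim end of the table in water samples, where the choice of scale sets the size of a difference. Its log2 difference was 1.69 in the table as deposited and 1.79 with median centring, but 1.24 when a pseudocount of 0.144 was added, which is of the size of its water intensities. It was 2.18 when the dimmest 25% of rows were left out before normalization. GLR2.7 had a log2 difference of 1.28 as deposited, 1.39 with median centring, 1.12 with the pseudocount and 1.36 without the dimmest rows. The treated side was higher for both genes in every one of these settings.

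**Figure D4:**
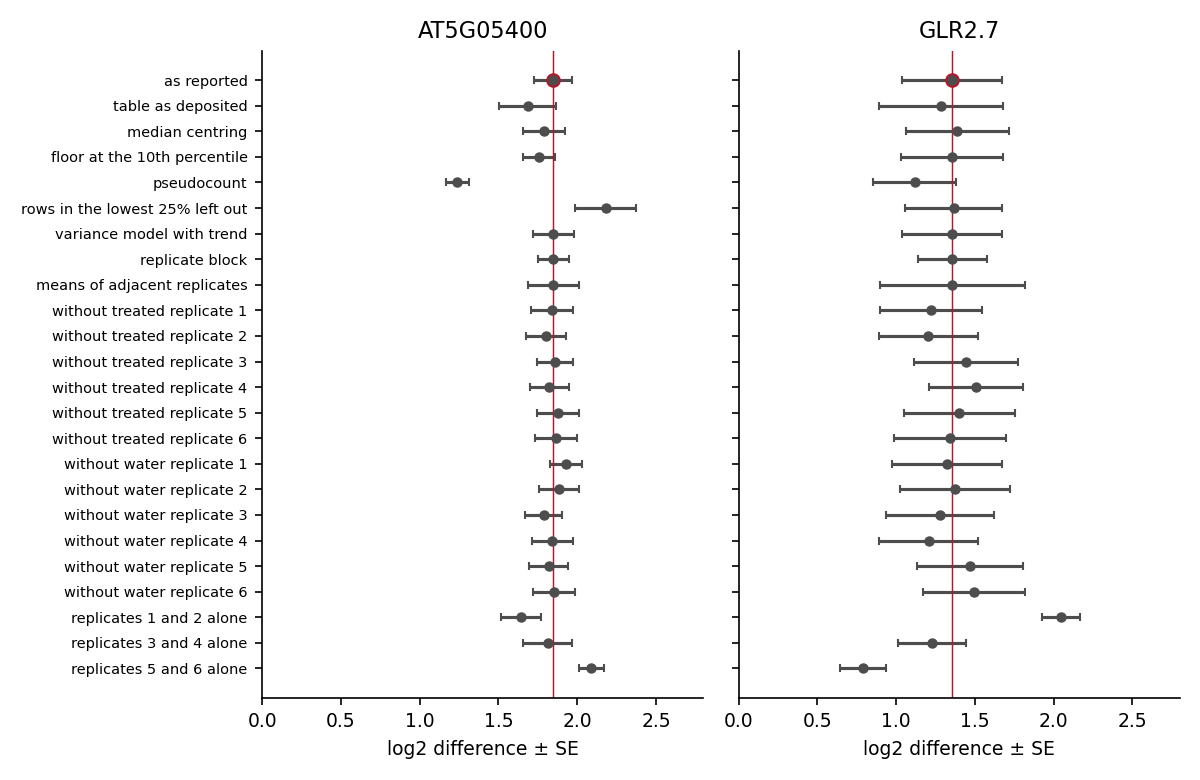
Log2 difference, staurosporine-ascorbate minus water, with its SE from the limma model (horizontal axis) for AT5G05400 and GLR2.7 under each way of processing the table (vertical axis), the reported one in red. AT5G05400 is lowest with the pseudocount (1.24) and highest without the dimmest rows (2.18), and GLR2.7 is highest with replicates 1 and 2 alone (2.05) and lowest with replicates 5 and 6 alone (0.79).

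GLR2.8 and GLR2.9 directly precede GLR2.7 among the protein-coding genes of the TAIR10.1 assembly, so the 3 genes lie next to each other. Their products belong to the same clade of channels. On this array GLR2.8 and GLR2.9 shared 1 row, so its intensity belongs to neither gene in particular. On that row the intensity was 0.482, 0.511, 0.442, 0.299, 0.613 and 0.540 on treated replicates 1 to 6, and 0.349, 0.353, 0.345, 0.327, 0.423 and 0.389 on water replicates 1 to 6. Treated replicate 4 lay below all water arrays, and the other treated arrays lay above all of them.

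The shared GLR2.8 and GLR2.9 row averaged 0.481 ± 0.106 in treated and 0.364 ± 0.0351 in water samples (SD, n = 6 each). It rose by 0.50 on the log2 scale (SE 0.0947, limma adjusted p 0.00211 over all rows) and was higher in 6 of 6 same-numbered pairs on that scale, and in 5 of 6 in deposited intensities. With the intensities as deposited the log2 difference was 0.37 and the limma adjusted p 0.0870, so the call depended on normalization between arrays. In replicates 1 and 2, 3 and 4, and 5 and 6 the log2 difference was 0.62, 0.31 and 0.58 on this row, against 2.05, 1.23 and 0.79 for GLR2.7. Whether GLR2.7 differed more than its neighbours was not tested, because GLR2.7 was chosen for its difference. How far a probe for 1 of the 3 genes also binds transcripts of the others is not known here, since no probe sequence was used.

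No other gene of the glutamate receptor-like family of 20 had a row of its own. The NLR list was written by hand with 30 genes of a larger class, and of these only AT5G05400 did. Other genes of the class may be among the rows named by a locus alone, since the gene table used here describes few genes. Such rows are left out here, so the rows named in this report do not stand for the class. The lists of surface receptors and receptor-like kinases (229 genes), of channels, pumps and exchangers that move calcium (57 genes) and of immune signalling and defence (45 genes, among them EDS1, FLS2's downstream kinases MPK3 and MPK6, and PR1) had 0 genes on rows of their own, with the same limit. The single list with measured genes was that of calcium sensors, with 2 of 108, CML41 and CML30.

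Both are calmodulin-like proteins, which change shape on binding calcium. CML41 acts at plasmodesmata, the channels between plant cells, during responses to bacterial flagellin. Of these 2 genes 0 passed the threshold in limma, and 1, CML41, had an unadjusted p under 0.05, as did 42.5% of all rows. CML41 had intensities of 1.35, 1.17, 0.643, 1.15, 1.23 and 1.45 on treated replicates 1 to 6, and of 1.29, 1.17, 0.759, 0.716, 0.851 and 0.903 on water replicates 1 to 6. Its log2 difference was 0.38 (SE 0.172, limma adjusted p 0.114), and the treated array was the brighter in 4 of 6 same-numbered pairs of deposited intensities. Without treated replicate 3 the log2 difference was 0.51 and the limma adjusted p 0.0142, so leaving out this 1 array changed the call. The difference also varied between adjacent pairs, at 0.07 in replicates 1 and 2, 0.33 in replicates 3 and 4 and 0.75 in replicates 5 and 6.

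CML30 averaged 1.49 ± 0.174 in treated and 1.66 ± 0.446 in water samples (SD, n = 6 each), with a log2 difference of -0.10 (SE 0.162, limma adjusted p 0.699). Its log2 difference was -0.02 in replicates 1 and 2, 0.36 in replicates 3 and 4 and -0.63 in replicates 5 and 6, so its sign was not settled. The treated array was brighter in 3 of 6 pairs of deposited intensities. A row shared by CML37, another calmodulin-like protein, and AT3G01830 averaged 0.409 ± 0.114 in treated and 0.405 ± 0.0340 in water samples (limma adjusted p 0.638).

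A further row touched the NLR list, shared by CSA1, an immune receptor of the class with a Toll and interleukin-1 receptor domain, and AT3G51570. Its intensity was lower on every treated array than on any water array, opposite in direction to AT5G05400, and 12.2% of all rows had treated arrays all below water arrays. It was 0.202, 0.281, 0.0878, 0.252, 0.292 and 0.301 on treated replicates 1 to 6, against 0.494, 0.516, 0.375, 0.389, 0.448 and 0.419 on water replicates 1 to 6. The row fell by 0.85 on the log2 scale (SE 0.167, limma adjusted p 0.00266). That 6 of 6 same-numbered pairs were lower in treated samples follows from the groups not overlapping. The fall cannot be assigned to either gene of this row. Since the NLR list is partial, this row and AT5G05400 do not show how the class as a whole differed.

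The rows most like AT5G05400 over the 12 arrays, by Pearson's r of normalized log2 values among 500 other rows with a single gene, were AT1G72020 (r 0.99), AT3G32930 (0.98), AT1G34270 (0.96), AT1G15410 (0.96) and AT4G15840 (0.94). All 5 were brighter in treated samples, so r includes the difference between the groups. In deviations from the group means the likeness was 0.70 for AT1G72020, 0.44 for AT3G32930, -0.05 for AT1G34270, 0.49 for AT1G15410 and 0.48 for AT4G15840. By that measure they ranked 11th, 47th, 251st, 37th and 39th of the 500 rows, so other rows were more like AT5G05400 within the groups. AT1G72020 averaged 0.846 ± 0.111 in treated and 0.415 ± 0.0589 in water samples (SD, n = 6 each). Its log2 differences in the adjacent pairs, 1.06, 1.08 and 1.29, ran in the same order as those of AT5G05400. So did those of AT3G32930 (0.45, 0.54 and 0.64), AT1G15410 (0.58, 1.12 and 1.33) and AT4G15840 (1.29, 1.37 and 1.92). Those of AT1G34270 did not, at 1.92, 1.53 and 2.03. AT1G34270 had almost the same log2 difference as AT5G05400, 1.83 against 1.85, but no likeness to it within the groups.

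The rows most like GLR2.7 had lower correlations, with AT3G11960 (r 0.89), AT3G57570 (0.84), AT4G33540 (0.84), AT5G52530 (0.84) and AT2G38550 (0.83) the 5 rows most like it. In deviations from the group means these stood at 0.71, 0.75, 0.65, 0.46 and 0.44, which ranked 10th, 6th, 18th, 47th and 49th of 500 rows. All 5 had their largest log2 difference in replicates 1 and 2. Those of AT3G11960 (1.18, 1.11 and 0.85 in the adjacent pairs) and AT2G38550 (1.19, 0.95 and 0.74) fell in the same order as those of GLR2.7. Those of AT4G33540 (1.76, 0.71 and 0.91) and AT5G52530 (1.72, 1.34 and 1.44) were smallest in replicates 3 and 4. AT4G33540 averaged 1.29 ± 0.481 in treated and 0.663 ± 0.349 in water samples (SD, n = 6 each). AT3G57570 had similar differences in the 3 pairs, 0.75, 0.58 and 0.64, and was dimmest in replicates 3 and 4 of the treated group. The correlations rest on 12 arrays that share group and adjacent number, and they carry no p.

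**Figure D5:**
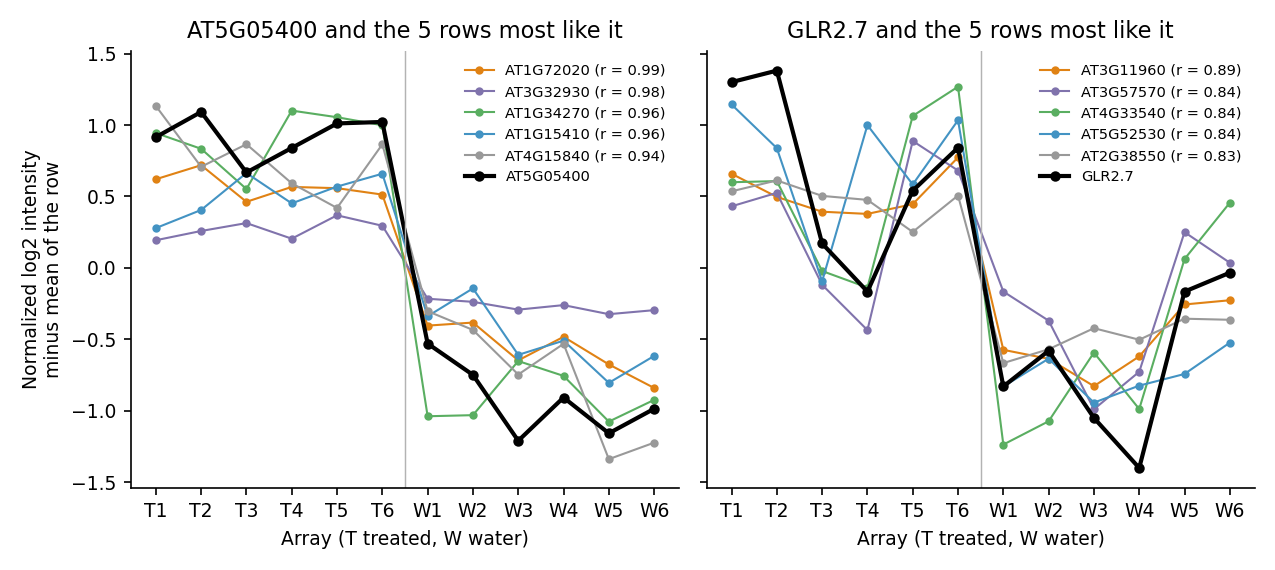
Normalized log2 intensity minus the mean of the row (vertical axis) on the 6 staurosporine-ascorbate arrays (T1 to T6) and the 6 water arrays (W1 to W6), for AT5G05400 and GLR2.7 (black) and the 5 rows with a single gene most like each (colours, Pearson's r in the legend). The black line of AT5G05400 stands above 0 on all treated and below 0 on all water arrays, and that of GLR2.7 dips at replicates 3 and 4 in both groups.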

How the data were processed

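Deposited values were 1 linear intensity per row and array for 12 arrays. The authors' scanner, background correction and scaling behind the intensities are not given in the sources used here, and the meaning of a 0 is unknown. Groups and replicate numbers come from the sample titles. A 0 was replaced by 0.0157, which is the 1st percentile of positive intensities. All values were then taken to log2 and, because array medians ranged over 0.47 on that scale, quantile-normalized. Group was the only term of a limma 3.58.1 model (lmFit, eBayes, in R 4.3.3), with Benjamini-Hochberg adjustment over 3439 rows and a threshold of 0.05, tested on simulated data first. The simulated arrays had independent noise, so that test does not cover the likeness of adjacent or same-numbered arrays. Means ± SD are of deposited intensities. AT5G05400 and GLR2.7, the gene lists and the alternatives were chosen with earlier results of these data known. The alternatives were the table as deposited, median centring, another floor, a pseudocount, a filter on dim rows, a variance trend, the replicate block, means of adjacent replicates and each array left out. Genes were named through the platform annotation and the TAIR10.1 gene table (690 of 692 single-gene rows matched a locus). Named were all list genes with a row of their own and the 5 rows most like each gene, among rows above the lowest 25% by mean and above 0 on every array. Rows shared by several genes that include a list gene were added. Deviations from group means of same-numbered treated and water arrays correlated at 0.302 to 0.425, and those of different number at up to 0.336. Each same-numbered value was over 0.1, so same-numbered arrays were compared as pairs in the ratios and pair counts. The lowest of these values, 0.302, lay below the highest of different number, 0.336. The values therefore do not establish a pairing by number, and no label explains the numbers. The reported model leaves the pairing out, and the replicate block was run as an alternative. Adjacent arrays enter the reported model as separate samples, so its SE and p do not allow for their likeness.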

Additional observations from a re-analysis of the deposited data

How the results depend on the processing

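The directions of AT5G05400 and GLR2.7, and of the rows shared by GLR2.8 and GLR2.9 and by CSA1 and AT3G51570, were the same under every alternative run. For AT5G05400 the log2 difference was 1.24 with the pseudocount, 2.18 without the dimmest rows and 2.09 with replicates 5 and 6 alone, and 1.79 to 1.93 without 1 array. For GLR2.7 it was 2.05 with replicates 1 and 2 alone and 1.21 to 1.51 without 1 array. The count of 1131 passing rows was 418 on means of adjacent replicates, 716 with replicates 1 and 2 alone, 552 with replicates 3 and 4 alone, 1216 with replicates 5 and 6 alone and 1010 to 1158 without 1 array. With the replicate block 1252 rows passed, and no call on the named list genes or shared rows changed. The SE of the GLR2.7 difference was 0.219 with the replicate block and 0.460 on means of adjacent replicates, against 0.318 as reported. Of the 2 calcium sensor genes, 0 passed in the reported model, 2 passed in opposite directions with replicates 5 and 6 alone (CML41 at 0.75 and CML30 at -0.63), where 35.4% of all rows passed, and 0 to 1 passed without 1 array, where 29.4% to 33.7% did. The call on the GLR2.8 and GLR2.9 row was lost as deposited (limma adjusted p 0.0870), with replicates 3 and 4 alone (0.439) and with replicates 5 and 6 alone (0.0604). That on the CSA1 and AT3G51570 row was lost with replicates 1 and 2 alone (log2 difference -0.89, adjusted p 0.0974) and 3 and 4 alone (-0.90 and 0.370), where 4 arrays enter and the difference was no smaller than the reported -0.85. CML30 turned to 0.36 with replicates 3 and 4 alone, and the CML37 and AT3G01830 row to -0.025 as deposited and -0.022 with replicates 3 and 4 alone. The cause was not tested. The fits on adjacent replicates alone were added after the data were seen. Signal over background is unknown, which limits any statement on the dim water values of AT5G05400.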
